A study of Homo sapiens with 12 samples.

Results

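The 10 genes described here encode the catalytic subunit of telomerase, its RNA-binding partner dyskerin, the 6 shelterin subunits and 2 further factors that act at chromosome ends. They are TERT, DKC1, TERF1, TERF2, TERF2IP, POT1, TINF2, ACD, RTEL1 and ATRX, 10 of the 63677 gene identifiers in the count files. The list was drawn up by gene name, with no threshold on any contrast, but its members were chosen by a selection that had results of these same libraries in view, and which of those values counted is not recorded. The differences between groups below are therefore a description of the listed genes, and no count over the list is independent evidence of a direction.

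MiaPaca2, an established human pancreatic ductal adenocarcinoma (PDAC) cell line, was kept for 24 h under 1 of 4 conditions and its RNA was sequenced, with 3 libraries per condition. Con cells received the vehicle DMSO. CPT cells received 1 µM calcipotriol, an analog of Vitamin D. GTA+5-Aza cells received 2 mM glyceryl triacetate, an acetate donor used to raise histone acetylation, and 1 µM 5-Aza-2′-deoxycytidine, a DNA methyltransferase inhibitor, and CPT+GTA+5-Aza cells received all 3 agents. Groups given GTA and 5-Aza are called primed and the other two unprimed. The design asks whether priming changes the transcriptome and the response to calcipotriol. All libraries came from 1 cell line, so the p-values measure the spread between samples of that line. The methods call the samples of an experiment independent in general terms, and neither they nor the labels say how the cultures for sequencing were kept apart.

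Telomeres are the repeat-bound ends of chromosomes, and they shorten as cells divide unless they are extended. Telomerase extends them by reverse transcription: TERT is the catalytic protein, TERC the RNA template, and dyskerin, the product of DKC1, holds the RNA in a stable particle. Shelterin coats the repeats and keeps them from being read as broken DNA. Most adult somatic cells keep TERT silent, whereas most carcinomas express it, usually at a low level.

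The DNA just before the RefSeq start sites of TERT and DKC1 is shown because, among the 10 genes, these encode parts of telomerase. TERT and DKC1 were lower in primed cells, and 5-Aza acts on methylation at CpG dinucleotides. Each line gives the 250 bases before the RefSeq start site on GRCh38, 5′ to 3′ on the strand of the gene, at chr5:1295069-1295318 on the minus strand for TERT and chrX:154762614-154762863 on the plus strand for DKC1. Capitals mark CACGTG, the E-box letters read by MYC and related factors, and GGGCGG, the GC-box letters read by SP1, on either strand.
TERT: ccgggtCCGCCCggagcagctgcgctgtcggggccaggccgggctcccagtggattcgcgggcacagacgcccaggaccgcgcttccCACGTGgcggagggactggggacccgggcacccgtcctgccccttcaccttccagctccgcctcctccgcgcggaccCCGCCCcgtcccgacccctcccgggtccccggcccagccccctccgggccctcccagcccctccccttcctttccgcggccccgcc
DKC1: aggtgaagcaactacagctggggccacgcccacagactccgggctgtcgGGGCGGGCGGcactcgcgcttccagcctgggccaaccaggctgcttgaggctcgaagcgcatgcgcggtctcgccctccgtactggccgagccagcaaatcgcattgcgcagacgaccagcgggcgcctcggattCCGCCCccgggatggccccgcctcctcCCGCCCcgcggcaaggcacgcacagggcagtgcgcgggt
The TERT window held 28 CpG dinucleotides and 78.8% G or C, and 84.1% of the 35116 start sites in the RefSeq table had fewer CpGs. The DKC1 window held 29 CpGs, against a median of 11 over all start sites. Windows of members that were not called as fitted lay above that median too. ACD had 27 CpGs, POT1 25, TERF2IP 20, TINF2 20 at both of its starts, and RTEL1 18 and 20. TERT had 1 CACGTG, which began 163 bases before the start, and 2 GGGCGG. No CACGTG was found in the DKC1 window, which held 4 GGGCGG, of which a pair overlapped. Part of the DKC1 window lies inside the gene as GENCODE places it, from chrX:154762742. So do part of the POT1 window and of the second TINF2 window, and all of the ACD window and of the second RTEL1 window. In all, 7 of the 10 genes had an entry in the table, with 9 start sites, and TERT was the only one of the 7 with CACGTG. TERF1, TERF2 and ATRX had no entry, so ATRX, which was called lower in primed cells, is missing from these comparisons of windows. Over all start sites 6.345% held CACGTG, 42.639% held GGGCGG and 3.537% held both. These are matches of letters. Neither binding nor methylation was measured in these libraries.

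Library totals ran from 16162490 to 21224665 counts, and mitochondrial genes took 3.86% to 4.85% of the counts. Of the epithelial markers, KRT8 averaged 1540 to 1694 CPM (counts scaled to a common library size) per group, but EPCAM had at most 1 count and CDH1 at most 4 counts in any library. Of the 4 epithelial markers tested, 2 were higher in each priming comparison: KRT7 by 2.34 and KRT19 by 0.27 on the log2 scale with priming alone (adjusted p = 0.00597 and 0.0467), and KRT18 by 0.18 and KRT19 by 0.28 beside CPT (adjusted p = 0.0436 and 0.0472). COL1A2, a collagen gene, averaged 729 to 897 CPM per group, while the fibroblast marker DCN had at most 2 counts. Both fibroblast markers tested, of 5 listed, were higher in primed cells in both comparisons: COL1A1, at 0.135 CPM in Con and 1.70 in GTA+5-Aza, and COL1A2. COL1A1, at 0.126 CPM in CPT, passed the filter on low counts through its primed libraries. Its direction was therefore favored in advance, and its call is description only. KRT7 was also low in unprimed cells, at 0.389 CPM in Con and 0.735 in CPT. Over all genes tested, 9.95% were called higher with priming alone and 9.57% beside CPT. Summed over 5 fibroblast markers the level was 790 to 843 CPM in Con, 689 to 763 in CPT, 874 to 944 in GTA+5-Aza and 815 to 842 in CPT+GTA+5-Aza, and the 6 epithelial markers summed to 2231 to 2391, 2082 to 2536, 2443 to 2625 and 2481 to 2566 CPM in the same order. The part of these markers in the results below was not tested. The summed immune markers stayed at or below 1.74 CPM, and 3 of 4 endothelial markers had no count in any library. All 10 telomere genes passed the filter on low counts, TERT through its unprimed libraries. The direction of TERT was therefore favored in advance as well, and its calls below are description only. In an edgeR fit with no filter on low counts, TERT differed by -1.90 with priming alone (adjusted p = 0.000446). Beside CPT it differed by -2.18 in that fit (adjusted p = 5.74e-05).

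TERT (ENSG00000164362, GRCh38 chr5:1253147-1295068, minus strand) was lower in primed cells than in unprimed cells, with and without CPT. Its raw counts were 60, 56 and 41 in Con, 49, 54 and 52 in CPT, 26, 6 and 7 in GTA+5-Aza, and 19, 6 and 7 in CPT+GTA+5-Aza. The primed libraries lay below the unprimed ones in both priming comparisons. Over all genes tested, the libraries did not overlap, in either direction, for 34.1% with priming alone and 30.8% beside CPT. Scaled by the trimmed mean of M-values (TMM), TERT averaged 2.61 ± 0.583 CPM in Con, 2.73 ± 0.0959 in CPT, 0.695 ± 0.603 in GTA+5-Aza and 0.591 ± 0.360 in CPT+GTA+5-Aza (SD, n = 3 each). The mean over primed libraries was 0.241 of the mean over unprimed libraries.

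In edgeR's quasi-likelihood test on the counts of all 12 libraries, TERT fell by 1.90 on the log2 scale in GTA+5-Aza against Con (SE 0.47, 95% interval -2.87 to -0.92, Benjamini-Hochberg adjusted p = 0.00591 over the 17123 genes tested). Beside CPT it fell by 2.18 (SE 0.49, interval -3.18 to -1.18, adjusted p = 0.00241). The priming comparisons share no library with each other. In bulk RNA, fewer cells that express TERT and less TERT RNA per cell cannot be told apart.

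**Figure D1:**
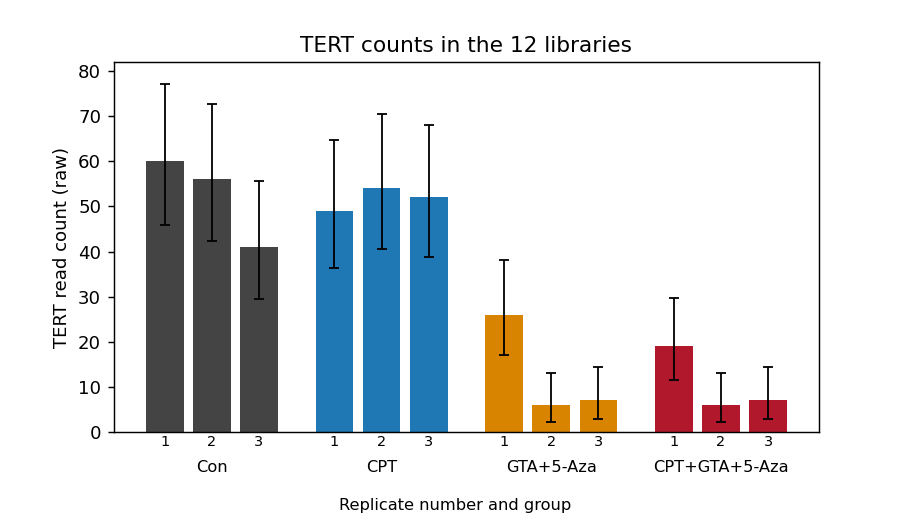
Raw TERT read count (vertical axis) in each of the 12 libraries, by replicate number and group (horizontal axis); error bars are exact 95% Poisson intervals, which cover counting error only. The 6 unprimed libraries had 41 to 60 counts and the 6 primed libraries 6 to 26, with replicate 1 the highest of the 3 in both primed groups.

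The primed libraries were not alike in TERT. Replicate 1 had 26 counts in GTA+5-Aza, with an exact 95% Poisson interval of 16.98 to 38.1, and 19 counts in CPT+GTA+5-Aza, with an interval of 11.4 to 29.7. The other 4 primed libraries had 6 or 7 counts, with intervals that reached at most 14.4. Against the mean of their unprimed group, the TERT level of GTA+5-Aza replicates 1, 2 and 3 differed by -0.84, -2.71 and -2.41 on the log2 scale. In CPT+GTA+5-Aza the TERT differences were -1.35, -2.67 and -2.41. Without GTA+5-Aza replicate 1 the TERT difference from Con became -2.89 (adjusted p = 0.000691), and without CPT+GTA+5-Aza replicate 1 the difference from CPT became -2.81 (adjusted p = 0.00187). The size of the difference in TERT therefore rested on which primed libraries were included, while its direction and call held in each of these fits.

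DKC1 (ENSG00000130826, chrX:154762742-154777689, plus strand), the dyskerin gene, was lower by a small margin. It had 250, 273 and 251 CPM in Con, 257, 282 and 260 in CPT, 224, 231 and 227 in GTA+5-Aza, and 239, 225 and 232 in CPT+GTA+5-Aza. The libraries did not overlap in either priming comparison, as was the case for 34.1% and 30.8% of all genes tested. DKC1 fell by 0.18 on the log2 scale with priming alone (SE 0.06, adjusted p = 0.0263) and by 0.20 beside CPT (SE 0.06, adjusted p = 0.0176). Scaled by library size alone, neither call held, with adjusted p = 0.0906 and 0.0627. With 1 library left out DKC1 was called in 3 of 6 fits with priming alone and in 4 of 6 beside CPT, and without replicate 1 of every group in neither comparison (adjusted p = 0.218 and 0.105).

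ATRX (ENSG00000085224, chrX:77504880-77786233, minus strand), a chromatin remodeler that deposits histone H3.3 at telomeres and is often lost in cells that lengthen telomeres without telomerase, was also lower. It had 237, 202 and 234 CPM in Con, 212, 186 and 219 in CPT, 179, 197 and 176 in GTA+5-Aza, and 190, 169 and 166 in CPT+GTA+5-Aza. The GTA+5-Aza libraries lay below all Con libraries, whereas the highest CPT+GTA+5-Aza library lay above the lowest CPT library. Over all genes tested, 34.1% had no overlap of libraries with priming alone. ATRX fell by 0.29 with priming alone (SE 0.07, adjusted p = 0.00690) and by 0.23 beside CPT (SE 0.07, adjusted p = 0.0291). The second call was lost when any of 4 single libraries was left out, with adjusted p from 0.0981 to 0.144, and with library size alone (adjusted p = 0.0732).

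The shelterin genes passed the test in neither priming comparison as fitted. TERF1 and TERF2, which encode the proteins that bind duplex telomere repeats, differed by -0.15 and -0.05 on the log2 scale in GTA+5-Aza against Con and by -0.19 and 0.07 beside CPT. POT1, whose product binds the single-stranded overhang, differed by 0.06 and 0.05 in the same order, with 95% intervals of -0.16 to 0.28 and -0.17 to 0.28. TINF2, the gene for the hub protein TIN2, differed by 0.07 and 0.18. Across all libraries TERF1 ranged from 16.2 to 22.7 CPM, TERF2 from 66.0 to 83.9, POT1 from 28.5 to 37.5 and TINF2 from 15.4 to 23.0.

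TERF2IP and ACD were the shelterin genes whose groups separated by library in GTA+5-Aza against Con. Beside CPT they were TINF2 and ACD, both higher in the primed group. Libraries did not overlap for 34.1% and 30.8% of all genes tested, so these separations do not set the genes apart. TERF2IP, the gene for RAP1, which is held at telomeres by TRF2, had 96.3, 94.3 and 101 CPM in Con and 88.2, 80.2 and 90.3 in GTA+5-Aza. Its log2 difference was -0.17 (SE 0.07, unadjusted P = 0.0285, adjusted p = 0.116), and -0.09 beside CPT (adjusted p = 0.475). TERF2IP shares 176 exon bases with KARS1 on the opposite strand, a gene that fell by 0.25 and 0.27 in the priming comparisons (adjusted p = 0.00155 and 0.000824), and whether the counting used strand is not given in the sources used here.

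ACD, the gene for TPP1, which recruits telomerase to the chromosome end, had 49.1, 57.1 and 57.6 CPM in Con and 61.8, 58.4 and 59.2 in GTA+5-Aza. Its log2 difference was 0.13 (SE 0.08, adjusted p = 0.315) and 0.13 beside CPT (adjusted p = 0.335), but the sign turned to -0.06 and -0.07 once each library's trend with gene GC content was removed. As fitted, the 6 shelterin genes gave 0 calls in either direction in both priming comparisons, by edgeR or DESeq2, and 1 of them, TERF2IP, had an unadjusted P below 0.05. Over all genes edgeR called 9.95% higher and 7.53% lower with priming alone, and 9.57% and 7.39% beside CPT. An unadjusted P below 0.05 was found for 5041 and 5013 of the 17123 genes tested. Against these shares, 0 calls among 6 genes do not set shelterin apart. With the GC trend removed, TERF2IP was called lower with priming alone (-0.21, adjusted p = 0.0194).

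RTEL1 (ENSG00000258366, chr20:63657810-63696253, plus strand), a helicase that unwinds the telomere loop during replication, could not be measured well. It had 17, 30 and 17 counts in Con, 9, 22 and 14 in CPT, 11, 27 and 21 in GTA+5-Aza, and 17, 14 and 22 in CPT+GTA+5-Aza. All 4 groups overlapped. Its log2 difference was -0.01 with priming alone, with a 95% interval of -1.07 to 1.04, and 0.36 beside CPT, with an interval of -0.73 to 1.45. Only 47.1% of its exon bases are its own: 4522 bases are shared with the read-through gene RTEL1-TNFRSF6B on the same strand, which had 68 to 133 counts. A difference in RTEL1 of any size inside these intervals is compatible with the data.

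**Figure D2:**
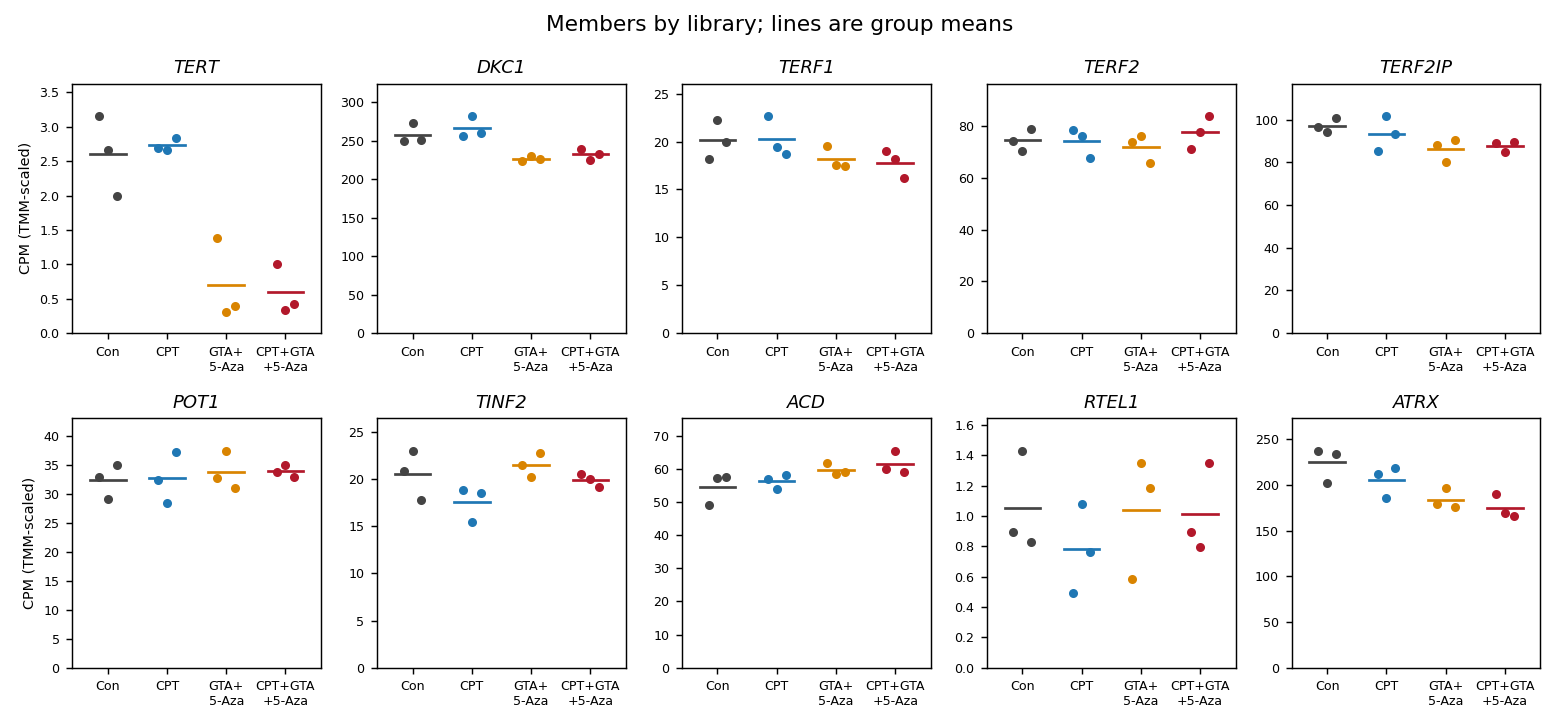
TMM-scaled CPM (vertical axis, from 0 in each panel) of the 10 genes in the 12 libraries by group (horizontal axis); points are libraries, in replicate order from left to right, and lines are means of 3. TERT is separated most clearly, DKC1 shifts from 250 to 282 CPM in unprimed to 224 to 239 in primed libraries, and the points of POT1, TERF2 and RTEL1 overlap between groups.

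By count, 3 of the 10 genes were lower and 0 higher in GTA+5-Aza against Con, where 7.53% of the 17123 genes tested were called lower and 9.95% higher. Beside CPT the count was again 3 lower and 0 higher, namely TERT, DKC1 and ATRX, against 7.39% lower and 9.57% higher over all genes. With DESeq2 3 of the 10 were also called lower in each comparison, against 8.8% and 8.75% of all genes. Without replicate 1 of every group, a fit added after the TERT counts were seen, TERT was the only one of the 10 called in each comparison, both times lower, and over all genes the share called lower had dropped to 1.4% and 1.56%. By the thresholds of the study, a fold change above 1.5 with unadjusted P below 0.05, TERT was the only one of the 10 called, and lower, in both comparisons, against 1.62% and 1.74% of all genes. The libraries of the groups did not overlap for 5 of the 10 genes with priming alone (TERT, DKC1, TERF2IP, ACD and ATRX) and for 4 beside CPT (TERT, DKC1, TINF2 and ACD), against 34.1% and 30.8% of all genes, so non-overlap was common in these data. The median log2 difference of the 10 genes was -0.10 with priming alone and -0.02 beside CPT, while that of all genes was 0.01 in both.

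The split of calls over all genes moved with the scaling. In GTA+5-Aza against Con it was 1703 higher and 1290 lower, 2013 and 908 with library size alone, and 1443 and 2049 with the GC trend removed. Beside CPT the same 3 splits were 1639 and 1265, 1986 and 891, and 1463 and 2173. TERT was called lower under all 3.

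**Figure D3:**
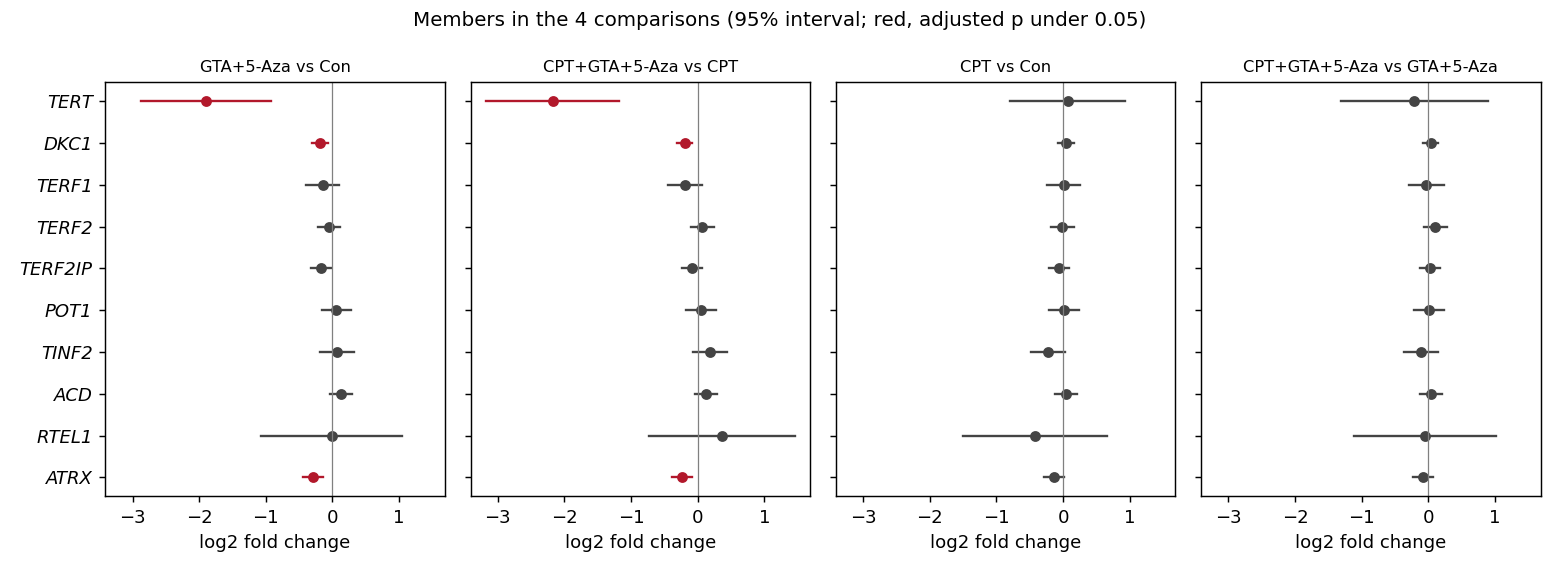
Log2 fold change (horizontal axis) of the 10 genes (vertical axis) in the 4 comparisons between groups, with 95% intervals; red marks an adjusted p below 0.05. TERT lies at -1.90 and -2.18 in the priming comparisons and at 0.07 and -0.21 in the CPT comparisons, and RTEL1 has an interval as wide as that of TERT.

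Calcipotriol left no call among the 10 genes. In CPT against Con, in CPT+GTA+5-Aza against GTA+5-Aza and in the interaction of CPT with priming, edgeR called 0 of the 10 in either direction, DESeq2 called 0, and 0 had an unadjusted P below 0.05. The smallest P among the 10 in CPT against Con was 0.0825, for TINF2. Over all genes edgeR called 0% higher and 0% lower in each of the 3 contrasts, with 733, 464 and 451 genes at an unadjusted P below 0.05 and 4, 1 and 0 called by DESeq2. No gene of the 10 had non-overlapping libraries in the 2 CPT comparisons, against 8.02% and 9.15% of all genes.

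TERT differed by 0.07 between CPT and Con (SE 0.42, 95% interval -0.80 to 0.94) and by -0.21 between CPT+GTA+5-Aza and GTA+5-Aza (SE 0.54, interval -1.31 to 0.89). The difference between these differences, the interaction, was -0.28 (interval -1.68 to 1.12). The intervals are wide, and a difference in TERT of any size inside them is compatible with the data. The sign within primed cells depended on single libraries: it was 0.78 without GTA+5-Aza replicate 1 and 0.07 without CPT+GTA+5-Aza replicate 2, and the interaction was 0.71 without GTA+5-Aza replicate 1. CPT against Con became -0.09 without Con replicate 3. DKC1 was measured far more tightly, with 0.05 (interval -0.07 to 0.17) in unprimed and 0.03 (interval -0.08 to 0.15) in primed cells. ATRX differed by -0.13 (interval -0.28 to 0.02) and -0.07 (interval -0.22 to 0.08).

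The 10 genes spanned a wide range of levels. Per kilobase of annotated exon, the median over 12 libraries was 26.6 CPM for DKC1, 20.3 for TERF2IP, 18.1 for ACD, 13.4 for TERF2, 8.51 for ATRX, 4.59 for TINF2, 3.78 for POT1, 1.20 for TERF1, 0.286 for TERT and 0.105 for RTEL1. DKC1 stood above all others in every library, while the ranges of TERF2IP and ACD, of TINF2 and POT1, and of TERT and RTEL1 overlapped. TERT ranged from 0.0508 to 0.533 CPM per kilobase and RTEL1 from 0.0579 to 0.167. The order depends on the annotated exon length, which was 15706 bases for TERF1 and 4378 for TINF2. In CPM these genes were alike, at 16.2 to 22.7 and 15.4 to 23.0. The lengths are those of GENCODE v44, and the counting may have used other exons. The order of medians was the same when only exon bases that no other gene shares were counted, although TINF2 rose to 5.87 and RTEL1 to 0.223. TINF2 shares 957 exon bases with GMPR2 on the opposite strand, which had 792 to 1113 counts.

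**Figure D4:**
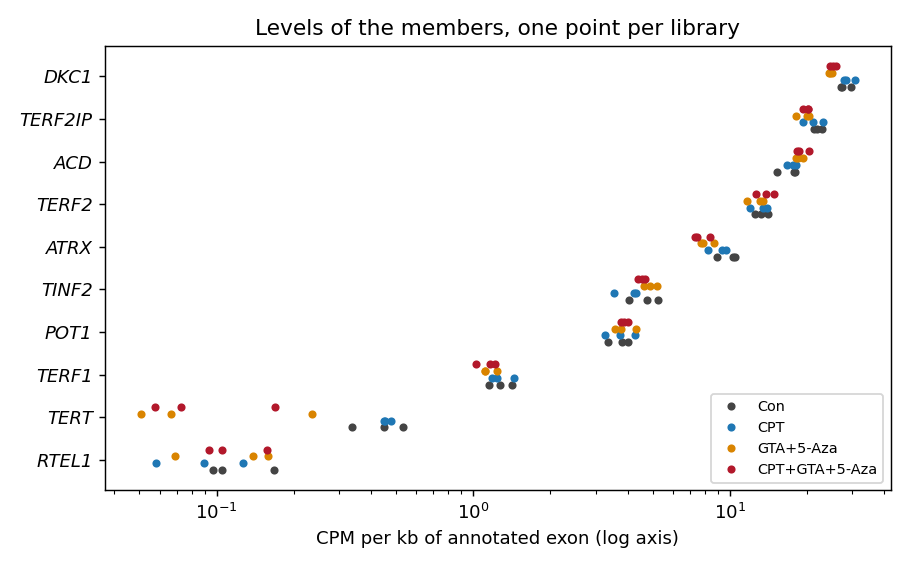
Level of each gene (vertical axis, in the order of the medians) as CPM per kilobase of annotated exon (horizontal log axis), with 1 point per library colored by group. TERT spans 0.0508 to 0.533 with primed libraries at the low end. The other 9 genes each span less on this axis, RTEL1 the most among them. The ranges of TERF2IP and ACD, of TINF2 and POT1, and of TERT and RTEL1 overlap.

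The wider telomere pathway was read from lists of genes named by function. Over all 17123 genes tested, 9.95% were called higher and 7.53% lower with priming alone, and 9.57% and 7.39% beside CPT. Counts in the lists are to be read against these shares. Of 16 genes for the telomerase RNA and its assembly, 1 was higher and 3 lower in GTA+5-Aza against Con, and 1 was higher and 4 lower beside CPT. TEP1, which encodes a telomerase-associated protein, rose by 0.46 (SE 0.09, adjusted p = 0.000863) and by 0.50 beside CPT (adjusted p = 0.000387). GAR1, a partner of dyskerin in the mature particle, fell by 0.54 with priming alone (adjusted p = 0.00235), and its difference beside CPT was -0.22 (adjusted p = 0.246). NVL, an ATPase, fell by 0.39 and 0.42 (adjusted p = 0.00781 and 0.00499), and RUVBL1, an ATPase needed to assemble telomerase, fell by 0.20 and 0.18 (adjusted p = 0.0147 and 0.0264). The RUVBL1 calls held in 4 of 6 and 2 of 6 fits with 1 library left out, and neither held with library size alone (adjusted p = 0.0534 and 0.0893). The NVL call with priming alone held in 4 of 6. RUVBL2 and PARN, which fell by 0.21 and 0.29 beside CPT (adjusted p = 0.0261 and 0.0290), were not called with priming alone. The RNA itself, TERC, had 0 to 32 counts and a difference of 0.73 (adjusted p = 0.552), and 1.61 beside CPT (adjusted p = 0.136), so no change in it could be called.

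Of 9 genes for the CST complex and end processing, 8 were tested, and 1 was higher and 1 lower with priming alone. The shares over all genes were 9.95% and 7.53%. EXO1, the exonuclease that resects the end, rose by 0.27 (adjusted p = 0.0407), and POLA1, the polymerase that fills it in, fell by 0.24 (adjusted p = 0.0273). Beside CPT their differences were 0.19 and -0.17 and neither passed (adjusted p = 0.157 and 0.141), while PRIM2, a primase subunit, rose by 0.44 (adjusted p = 0.00549). With 1 library left out, EXO1 and POLA1 were each called in 1 of 6 fits with priming alone. The 14 genes of telomere replication and damage response, among them ATM, ATR and WRN, gave 0 calls by edgeR in both comparisons. With priming alone 1 of them was higher and 3 lower at an unadjusted P below 0.05, and DESeq2 called 1, lower. They were FEN1, at 0.15, and WRN, NBN and RAD50, at -0.31, -0.26 and -0.17. Beside CPT the counts were again 1 and 3, with ATR at -0.21 in place of RAD50. Over all genes, 5041 of 17123 had an unadjusted P below 0.05 with priming alone, and 5013 beside CPT. Against these shares, the counts at an unadjusted P below 0.05 do not set the list apart.

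Of 16 partners of ATRX and factors tied to telomerase-independent lengthening, 15 were tested, with 1 higher and 3 lower, and 1 higher and 2 lower beside CPT. The shares over all genes were 9.95% higher and 7.53% lower, and 9.57% and 7.39% beside CPT. H3-3B, a gene for the H3.3 that ATRX deposits, fell by 0.32 in both (adjusted p = 6.86e-05 and 5.01e-05). HIRA, another H3.3 chaperone, fell by 0.46 and 0.41 (adjusted p = 0.0217 and 0.0432), and was called in 3 of 6 and 2 of 6 fits with 1 library left out. Its call beside CPT was also lost with the replicate number as a block (adjusted p = 0.0546) and with library size alone (adjusted p = 0.0707). ASF1B, a histone chaperone of dividing cells, rose by 0.37 and 0.39 (adjusted p = 0.00122 and 0.000788). NR2F2, an orphan nuclear receptor, fell by 0.24 with priming alone (adjusted p = 0.0113), and was called in 3 of 6 fits with 1 library left out; its difference beside CPT was -0.13 (adjusted p = 0.191), and it was called there with the GC trend removed (-0.16, adjusted p = 0.0393).

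Of 17 transcription factors known to act at the TERT promoter, 1 was higher and 1 lower with priming alone, and 2 were higher and 1 lower beside CPT. The shares over all genes were 9.95% higher and 7.53% lower, and 9.57% and 7.39% beside CPT. WT1, described as a repressor of TERT in some cells, rose from 3.24 ± 0.756 CPM in Con to 9.68 ± 2.76 in GTA+5-Aza (SD, n = 3), a log2 difference of 1.58 (SE 0.24, adjusted p = 4.75e-05), and by 1.60 beside CPT (adjusted p = 5.25e-05). ETS2, the other gene higher beside CPT, rose by 0.59 there (adjusted p = 0.00775). HIF1A, the hypoxia factor, fell by 0.28 and 0.26 (adjusted p = 0.00359 and 0.00606). MYC, the best-known activator of TERT, averaged 170 CPM in Con and 154 in GTA+5-Aza and was not called. Whether any of these factors bound near TERT was not measured here.

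Since TERT is often higher in dividing cells, genes of proliferation were counted beside it. Of 17, 1 was higher and 6 lower with priming alone, and 2 were higher and 5 lower beside CPT. The shares over all genes were 9.95% higher and 7.53% lower, and 9.57% and 7.39% beside CPT. CCNB1, the mitotic cyclin, fell by 0.39 and 0.42 (adjusted p = 4.65e-06 and 1.77e-06), while CDK1, its kinase, rose by 0.26 and 0.22 (adjusted p = 0.00637 and 0.0170). The others that fell with priming alone were MCM5, CCNA2, TYMS, AURKA and PLK1, by 0.19 to 0.37, and beside CPT CCNA2, RRM2, AURKA and PLK1 fell by 0.16 to 0.40 and MCM3 rose by 0.17. MKI67 differed by 0.03 and -0.05 and was called in neither. Their summed level was 6834 to 7020 CPM in Con, 6907 to 7186 in CPT, 6543 to 6685 in GTA+5-Aza and 6562 to 6665 in CPT+GTA+5-Aza. The sum was thus lower in primed cells, and it is weighted to abundant genes such as MKI67 and TOP2A. The part of proliferation in the TERT difference was not tested.

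**Figure D5:**
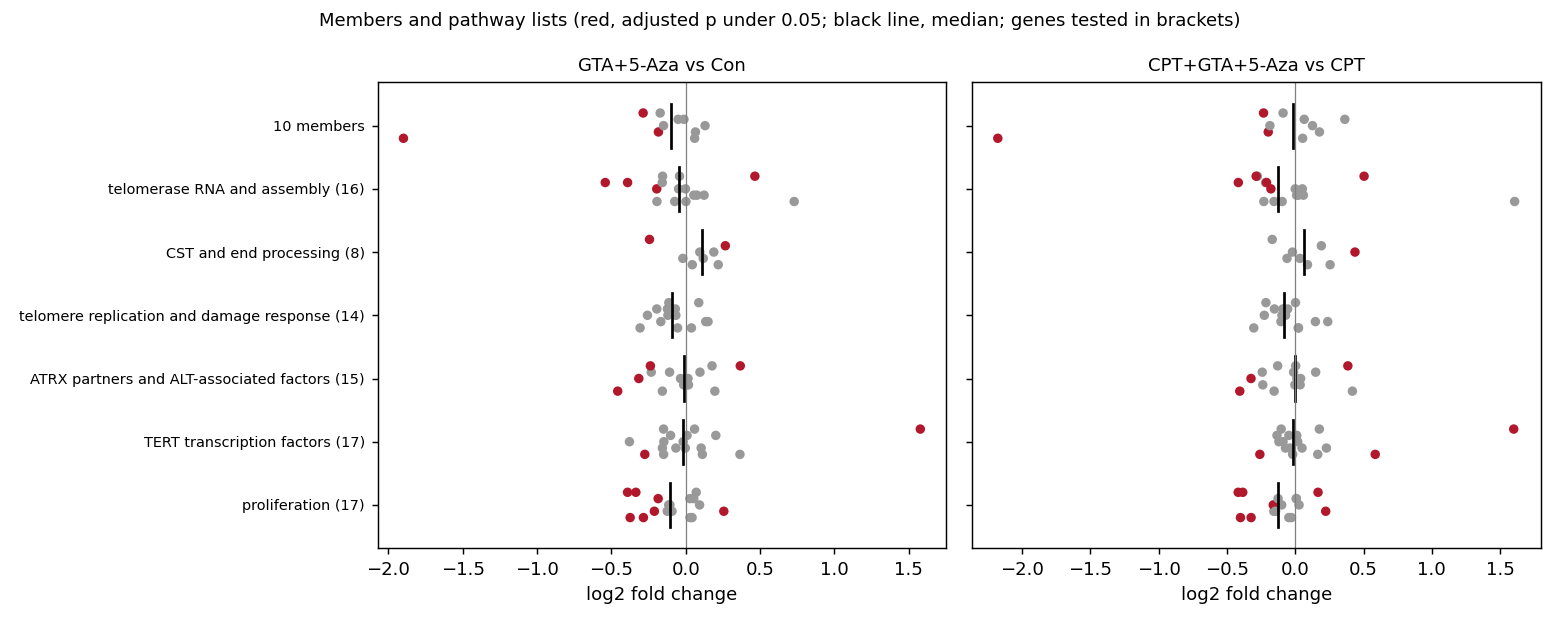
Log2 fold change (horizontal axis) of each tested gene in the 10 members and the 6 lists (vertical axis) in both priming comparisons; red points have an adjusted p below 0.05 and black lines are medians. TERT, at -1.90 and -2.18, lies below every gene of the lists, and WT1, at 1.58 and 1.60, lies far from its list.

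As a description, the pattern of TERT over the 12 libraries was set against that of every other tested gene by Pearson's r of log2 CPM. The 5 closest were CTBP2 (r = 0.953), ZNF407 (0.944), EXT1 (0.941), GPSM2 (0.937) and LRRC59 (0.935), and 49 genes had r above 0.9. All 12 points share the priming contrast, so genes lower in primed cells score high. CTBP2, a transcriptional corepressor, averaged 114 CPM in Con, 113 in CPT, 88.3 in GTA+5-Aza and 89.5 in CPT+GTA+5-Aza, a much smaller difference than in TERT. Among the telomere genes r with TERT was 0.80 for DKC1, 0.71 for ATRX, 0.68 for TERF1 and 0.66 for TERF2IP, and it was negative for TERF2 (-0.15), TINF2 (-0.30), POT1 (-0.32), RTEL1 (-0.38) and ACD (-0.62).

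The nearest tested gene on each side of TERT did not share its difference as fitted. Genes that failed the filter on low counts were not considered as neighbors. SLC12A7, an ion cotransporter gene at chr5:1050384-1112063, differed by 0.02 with priming alone and -0.19 beside CPT (adjusted p = 0.921 and 0.154). CLPTM1L, at chr5:1317752-1345099 on the other side, differed by -0.13 and -0.04 (adjusted p = 0.161 and 0.715). With the GC trend removed CLPTM1L was called lower in both comparisons, at -0.29 and -0.20, and SLC12A7 differed by -0.17 and was called lower beside CPT at -0.37, all far smaller than the TERT difference. The nearest tested neighbors of RTEL1, STMN3 and ARFRP1, differed by 0.10 and 0.18 with priming alone. Beside CPT they differed by -0.02 and 0.18, with no call in either comparison. With the GC trend removed STMN3 was called lower beside CPT (-0.22, adjusted p = 0.00140).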

How the data were processed

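The data were RNA-seq of MiaPaca2 cells in 12 libraries, whose 4 groups of 3 come from the sample labels. The authors deposited raw, unnormalized counts for each gene, made with HTSeq after trimming (Trim Galore) and alignment to GRCh38 (HISAT2 2.2.1). The strand setting of the counting is not given in the sources used here. Rows naming no gene: 0. Symbols, exons and coordinates came from GENCODE v44 on GRCh38, which held 52181 of the 63677 identifiers, and upstream sequences from RefSeq on GRCh38.

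The members and lists were chosen with earlier results of these data known. The test used edgeR 4.0.16 in R 4.3.3 (filterByExpr on the 4 groups, TMM, glmQLFit and glmQLFTest on all 12 libraries in 1 fit, which tested 17123 genes) and adjusted by Benjamini-Hochberg over all of them, with calls at an adjusted p below 0.05. Each SE is the size of the log2 fold change over the square root of F. Alternatives were DESeq2 1.42.0, other scalings and filters, glmTreat, a replicate term, removal of each library's GC trend (GC was known for 96.2% of genes) and leaving out each library. The scripts were tested on simulated data. Named genes were all members, up to 4 called genes per pathway list with the same direction in both priming comparisons, neighbors of TERT and RTEL1, genes sharing exons with a member and the 5 genes most correlated with TERT; the markers, the proliferation genes and MYC, TERC, RUVBL2, PARN, PRIM2, ETS2, FEN1, WRN, NBN, RAD50, ATM and ATR named in addition were chosen after their values were seen. Poisson intervals cover counting error only. No per-sample column went unused.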

Additional observations from a re-analysis of the deposited data

How the results depend on the processing

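TERT kept its direction in both priming comparisons under every alternative run, and its call under all but 1: against a fold of 1.5 with glmTreat its adjusted p was 0.0943 with priming alone and 0.0412 beside CPT. With 1 library left out, TERT ranged from -2.89 to -1.53 with priming alone (adjusted p 0.000691 to 0.0436) and from -2.81 to -1.90 beside CPT, and was called in all 6 fits of each. Without replicate 1 of every group, added after the data were seen, TERT was -2.73 (adjusted p = 0.00747) and -2.82 (adjusted p = 0.00554).

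The count of members lower, 3 in each comparison, fell to 2 with priming alone and 1 beside CPT with library size alone, to 1 and 1 by the thresholds of the study, to 0 and 1 with glmTreat, and to 1 and 1 without replicate 1 of every group. With the GC trend removed, with or without the block, it was 4 with priming alone and 3 beside CPT. With 1 library left out it ranged from 2 to 3 with priming alone and from 1 to 3 beside CPT. The number called lower over all genes moved too. It was 1290 and 1265 as fitted, 908 and 891 with library size alone, and 278 and 298 by the study's thresholds. With glmTreat it was 13 and 14, and without replicate 1 of every group 242 and 271. With the GC trend removed it was 2049 and 2173, or 1988 and 2135 with the block. DKC1 lost its call with priming alone without Con replicate 2 (adjusted p = 0.140), GTA+5-Aza replicate 1 (0.102) or GTA+5-Aza replicate 3 (0.0710), and beside CPT without CPT+GTA+5-Aza replicate 2 (0.0960) or 3 (0.0610). ATRX lost its call beside CPT without CPT replicate 1 (adjusted p = 0.106) or 3 (0.0981) or CPT+GTA+5-Aza replicate 2 (0.125) or 3 (0.144). TERF2IP was called lower with priming alone once the GC trend was removed (-0.21, adjusted p = 0.0194). Without replicate 1 of every group, of the named list genes H3-3B, ASF1B and WT1 stayed called in both comparisons, while TEP1, NVL, RUVBL1, HIRA and HIF1A lost the call in both. The cause was not tested.

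Signs turned for values that were not called in the main setting. With the GC trend removed, with priming alone ACD became -0.0625 (-0.0612 with the block), SLC12A7 -0.17 (-0.17), STMN3 -0.11 (-0.11) and ARFRP1 -0.0141 (-0.0153), and beside CPT ACD became -0.0671 (-0.0649). With library size alone RTEL1 became 0.0267 with priming alone and STMN3 0.019 beside CPT. Without replicate 1 of every group RTEL1 became 0.17, SLC12A7 -0.024 and TERT, between the primed groups, 0.14. With 1 library left out, the ranges that crossed 0 were, with priming alone, -0.0931 to 0.0078 for TERF2, -0.0219 to 0.12 for POT1, -0.0329 to 0.15 for TINF2, -0.25 to 0.28 for RTEL1 and -0.0357 to 0.10 for SLC12A7. Beside CPT they were -0.0432 to 0.15 for POT1 and -0.0649 to 0.0531 for STMN3. For TERT they were -0.0904 to 0.23 in CPT against Con, -0.84 to 0.78 for CPT in primed cells and -0.91 to 0.71 for the interaction.

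No clear pairing of libraries by replicate number was seen. Deviations of same-numbered libraries correlated at -0.048 to 0.117 and those of different-numbered libraries at -0.097 to 0.071. The highest value was that of replicate 2 in CPT against Con. With the replicate number as a block TERT was -2.03 and -2.32, the counts of members lower stayed 3 and 3, and HIRA lost its call beside CPT (adjusted p = 0.0546). RUVBL1 and HIRA lost their calls beside CPT with no filter on low counts (0.0567 and 0.0578) and with the compared groups alone (0.0618 and 0.0554), EXO1 with priming alone with no filter (0.0529) and POLA1 with library size alone (0.0701). At 6 to 60 counts of TERT and 9 to 30 of RTEL1, counting error limits both genes.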
